A study of Mus musculus with 27 samples.

Results

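The response of cytosolic RNA to bicuculline was measured in 6 libraries of mouse primary cortical cells kept under triptolide, 3 stimulated and 3 unstimulated, out of the 27 libraries of the series. Genes with an FPKM (fragments mapped to a gene, scaled for transcript length and library size) of at least 1 in at least 3 of these 6 libraries were taken, which gave 12318 of the 59489 entries of the table. The cells were wild type, of a strain not given in the sources used here, isolated at embryonic day 16.5 and kept for 14 days in culture. Cells of all 6 libraries, the unstimulated ones included, received triptolide at 1 µM for 3 h. The stimulated cells also received bicuculline at 20 µM for 1 h, and the labels do not say when within the 3 h it was added. Polyadenylated RNA of the cytosol was sequenced with a stranded kit from 200 ng of total RNA. Nuclear RNA and RNA of whole cells were taken under the same treatments, with 3 libraries in each group, and these 12 libraries served for comparison. Stimulated and unstimulated libraries of the same number were treated as pairs 1, 2 and 3. The labels do not say whether the libraries came from separate cultures or animals, so p-values measure only the spread between these libraries, which may be technical.

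Bicuculline blocks GABA-A receptors, which lifts inhibition in a cortical culture and raises the firing of its network. Triptolide binds the XPB subunit of the general transcription factor TFIIH and blocks the start of transcription by RNA polymerase II. Under such a block the amount of an mRNA in the cytosol depends on its export from the nucleus, on its decay and on any transcription that escapes. The title of the series names intron retention in neurons as its subject. RNA with a retained intron is polyadenylated, keeps an intron and is often held in the nucleus. The FPKM values used here are given per gene and do not separate spliced from unspliced RNA.

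Depth, estimated from the steps between low FPKM values, was 74700000 to 89500000 fragments in the cytosolic libraries. The unstimulated libraries held 12056 to 12149 genes with an FPKM of at least 1, and the stimulated ones 12236 to 12449. The labelled cell type was checked on markers. The summed FPKM of 5 pan-neuronal markers was 1735 to 1812 in unstimulated cytosol, that of 7 astrocyte markers 448.5 to 568.9 and that of 6 microglia markers 2.09 to 4.22. In bulk RNA fewer cells of a type and less RNA per cell cannot be told apart. Transcripts of the mitochondrial genome made up 9.52% to 12.3% of the summed FPKM in unstimulated cytosol and 8.91% to 9.44% with bicuculline, and their part in the results below was not tested.

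Bicuculline was followed by small increases in the cytosol, spread over many genes. At a Benjamini-Hochberg adjusted p under 0.05 in limma, with the pairs kept as blocks, 1256 genes were called, 10.2% of those tested, of which 1217 were higher (9.88%) and 39 lower (0.317%). The median log2 change of the 1217 genes was 0.32, and 80 of them rose by 0.5 or more. The 39 falls had a median log2 change of -0.30, and 22 of them belonged to entries without a gene symbol. Over all 12318 genes the median log2 change was 0.09, with 0.07 in pair 1, 0.05 in pair 2 and 0.15 in pair 3. Scaling each library by the median ratio to the other libraries brought this median to -3e-04 and left 150 higher and 96 lower, so the surplus of rises over falls depends on the FPKM scale. The number called fell to 521 without the pairing, to 34 without pair 1, to 396 without pair 2 and to 23 without pair 3. Here and below, leaving out a pair removed its cytosolic libraries only. The plot of changes per pair shows the genes named by rule for their size.

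**Figure D1:**
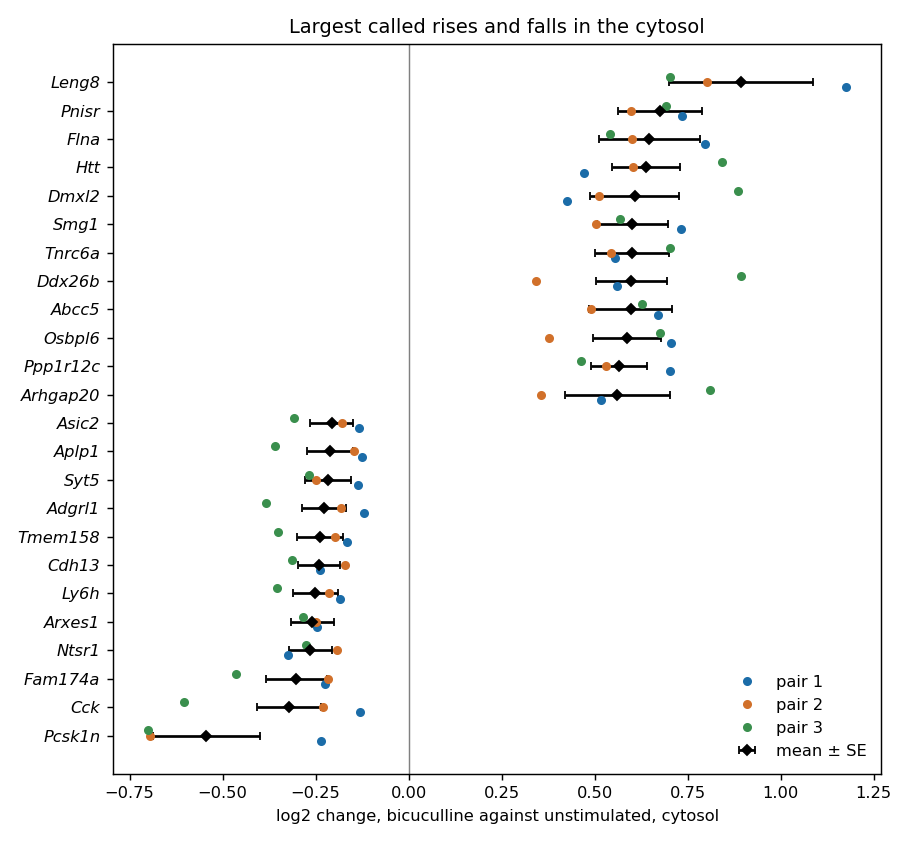
The horizontal axis is the log2 change with bicuculline in the cytosol, for the 12 largest called rises and the 12 largest called falls among genes with a symbol and a mean FPKM of 5 or more. Coloured points are pairs 1 to 3, and black diamonds with bars are the mean change and its standard error (SE). All 3 pairs lie on the same side of 0 for each gene, as the naming rule required. The rises reach 0.89 for Leng8 and the falls reach -0.54 for Pcsk1n.

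Immediate early genes, whose transcription neurons switch on within minutes of activity, were higher in the cytosol after bicuculline although triptolide was present. Of 37 listed genes 20 passed the FPKM filter, and 13 of these were higher and 0 lower, where 9.88% of all genes tested were higher. Their median log2 change was 0.39, against 0.09 over all genes tested. Of their changes 20 of 20 were positive, as were 77.2% of all genes tested. Median-ratio scaling left a median of 0.31 with 8 called, and the fit without pairs left 6 called. Of these 20, Fosb, Cyr61 and Egr4 reached an FPKM of 1 in no unstimulated library and passed the filter only through the bicuculline libraries, so the counts and the median describe the genes that passed and are no support for a rise of the list. Another 4 listed genes had no entry in the table, and 13, Egr2, Ier2, Atf3 and Dusp1 among them, were in it and too low in the cytosol to be tested. Of the 13, 10 had the higher FPKM with bicuculline in all 3 pairs. How many other entries below the filter did so was not counted. Dusp1, a phosphatase that switches off MAP kinases and named here after its values were seen, had an FPKM of 0.452, 0.308 and 0.364 unstimulated and 0.983, 0.461 and 1.18 with bicuculline in pairs 1 to 3.

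Fos, the AP-1 subunit most used as a mark of recent activity, had a cytosolic FPKM of 3.79, 2.87 and 3.87 in the unstimulated libraries of pairs 1 to 3 and of 6.42, 4.60 and 6.69 with bicuculline. The groups did not overlap, and pair 2 was the lowest in both states. The log2 change was 0.67 ± 0.07 (mean of 3 pairs ± SE of limma, adjusted p = 0.000558 in limma). The SE here and below takes its spread from the pairs of all 3 fractions and not from the cytosolic pairs alone. Fosb, another AP-1 subunit, stood at 0.515, 0.368 and 0.621 unstimulated and at 1.51, 1.03 and 1.59 with bicuculline, a change of 0.90 ± 0.09 without overlap, and it was tested only because its bicuculline libraries passed the filter. Npas4, a transcription factor that responds to calcium entry and acts on inhibitory synapses, went from 1.07, 0.605 and 1.01 to 2.44, 1.31 and 2.31, a change of 0.84 ± 0.08, again without overlap. Each of these increases was present in all 3 pairs and was still called when any 1 pair was left out. Without the pairing the adjusted p of limma was 0.0701 for Fos and 0.0521 for Npas4, while Fosb stayed called.

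The RefSeq promoters of these genes are shown because their transcripts rose together in the cytosol, though Npas4 was not called in the nucleus. A further reason is that cyclic AMP response elements are known to drive such genes. Each spans 250 bases before and 50 after the gene's start in GRCm38.p6, 5′ to 3′ on the gene's strand, at chr12:85473640-85473939 on the plus strand for Fos, chr7:19309996-19310295 on the minus strand for Fosb and chr19:4989922-4990221 on the minus strand for Npas4. Capitals mark TGACG on either strand (CGTCA on the other), which is only a part of the full element TGACGTCA.
Fos: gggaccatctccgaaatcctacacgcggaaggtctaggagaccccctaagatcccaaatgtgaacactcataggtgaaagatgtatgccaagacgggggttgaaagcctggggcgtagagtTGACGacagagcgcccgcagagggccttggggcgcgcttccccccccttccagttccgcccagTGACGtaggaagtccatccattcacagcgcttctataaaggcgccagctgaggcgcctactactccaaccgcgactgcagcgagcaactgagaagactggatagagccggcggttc
Fosb: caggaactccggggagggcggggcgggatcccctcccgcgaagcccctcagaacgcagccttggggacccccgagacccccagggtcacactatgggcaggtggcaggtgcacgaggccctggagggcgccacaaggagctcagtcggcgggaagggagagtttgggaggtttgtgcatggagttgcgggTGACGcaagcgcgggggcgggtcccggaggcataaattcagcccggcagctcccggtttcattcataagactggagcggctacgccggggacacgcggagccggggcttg
Npas4: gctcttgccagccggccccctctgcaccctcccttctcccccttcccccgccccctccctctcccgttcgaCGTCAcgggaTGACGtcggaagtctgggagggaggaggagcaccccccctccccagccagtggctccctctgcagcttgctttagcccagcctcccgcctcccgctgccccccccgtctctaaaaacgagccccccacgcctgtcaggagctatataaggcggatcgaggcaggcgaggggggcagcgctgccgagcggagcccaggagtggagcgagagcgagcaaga
Among 32851 promoters of the same length 20.8% hold TGACG on either strand. The full TGACGTCA is in 1.79% of them and does not occur in the promoters printed here. A match is a description of the letters only, and nothing in the FPKM values bears on which promoter was active.

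Arc, a postsynaptic protein that removes AMPA receptors, had a cytosolic FPKM of 1.25, 0.804 and 1.93 unstimulated and 2.48, 1.28 and 3.43 with bicuculline. The groups overlapped, since pair 2 with bicuculline lay below unstimulated pair 3, but each pair rose, by 0.64 ± 0.09 on average on the log2 scale. Per1, a clock gene that is also an early gene, rose from 2.67, 2.41 and 2.75 to 5.47, 4.12 and 5.07, a change of 0.79 ± 0.08 without overlap. Cyr61, a secreted matrix protein, rose from 0.589, 0.597 and 0.707 to 1.56, 1.49 and 2.05, the largest change among the 20 genes at 0.95 ± 0.11, and like Fosb it passed the filter only with bicuculline. Smaller called changes were those of Gadd45b (0.61), the zinc finger factor Egr1 (0.48), Btg2 (0.45), the nuclear receptor Nr4a1 (0.41), Fosl2 (0.37), Srf (0.34) and the postsynaptic scaffold Homer1 (0.28). Egr4, at 0.34, and Nr4a3, at 0.31, did not pass. Arc and Egr1 lost their calls without pair 1 (adjusted p 0.0581 and 0.0622 in limma) and without pair 3 (0.065 and 0.0549). Btg2 lost its call without pair 1 (0.0719) and without pair 3 (0.147), and Nr4a1 without any 1 of the pairs (0.0563 to 0.0922).

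**Figure D2:**
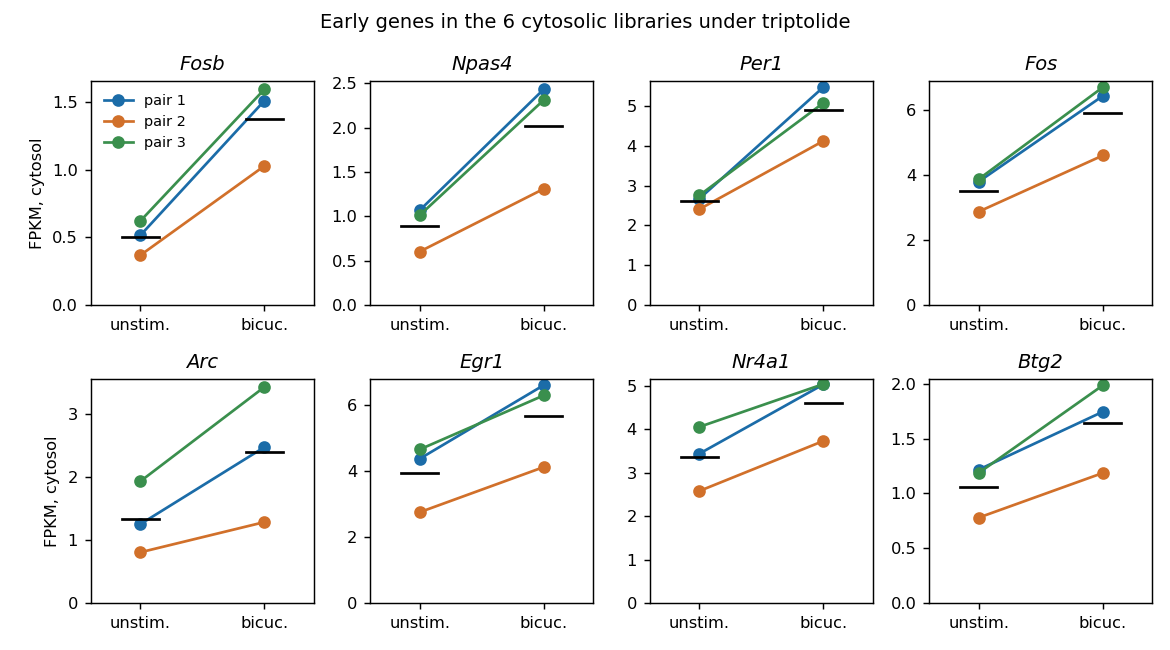
Vertical axes are the cytosolic FPKM of 8 early genes, each on its own linear scale from 0. Coloured lines join the unstimulated and bicuculline libraries of a pair, and black bars are means of 3 libraries. All lines rise, and pair 2 (orange) is lowest for each of the 8 genes plotted in both states, for example at 2.87 and 4.60 for Fos.

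In the nuclear libraries, where 828 of the 12318 genes were called (6.72%), 508 of them higher (4.12%) and 320 lower (2.6%), 10 of the 20 early genes were higher and 0 lower. Fos was at 2.90, 1.98 and 3.12 in the unstimulated nucleus and at 5.27, 3.70 and 5.30 with bicuculline, a log2 change of 0.73, and Fosb changed by 1.18 there. Npas4 differed. Its nuclear FPKM was 2.66, 1.67 and 2.56 unstimulated and 2.85, 1.73 and 3.02 with bicuculline, a change of 0.11 that did not pass. The difference of its response between cytosol and nucleus was 0.73 (adjusted p = 0.012 in limma), and that of Per1 was 0.45 (adjusted p = 0.0482). For the other 18 early genes tested the difference was not called.

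Genes that usually follow the early wave showed little change in the cytosol. Of 19 delayed genes tested, 2 were higher, the polo-like kinases Plk3 (0.42) and Plk2 (0.36), a share near the 9.88% of all genes tested, and the list's median log2 change was -0.02. Bdnf, which encodes a growth factor released with activity, had an FPKM of 5.03, 4.27 and 6.22 unstimulated and of 5.21, 3.42 and 5.24 with bicuculline, groups that overlapped, and its change of -0.16 was not called. In the nucleus the same list had a median of 0.24, against -0.0024 over all genes tested. There 4 of 19 were called higher, beside 4.12% of all genes. Feedback regulators of ERK signalling had a cytosolic median of 0.25, with 13 of 13 positive, as were 77.2% of all genes tested, and 2 called higher, where 9.88% of all genes were, the receptor antagonist Spry2 (0.30) and the pseudokinase Trib2 (0.29). Median-ratio scaling left 0 of both lists called.

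AU-rich elements in the 3′ UTR mark short-lived mRNAs, Fos being the textbook case. The nonamer TTATTTATT was searched on the transcript strand of the 3′ UTR. It was found in 7.35% of 10160 coding genes tested, in 10.83% of those called higher and in 2 of 16 called lower. In the GENCODE M21 models it lies in Fos at chr12:85477104-85477130 and in Plk2 at chr13:110400735-110400761, on the plus strand of GRCm38, with capitals for the nonamer.
Fos: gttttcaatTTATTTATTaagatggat
Plk2: ataaactttTTATTTATTacagcccca
Both genes were called higher in the cytosol. Coding genes called higher had longer 3′ UTRs, with a median of 1454 nt against 1049.5 nt over all coding genes tested. The shares with the nonamer were not adjusted for this length. The match describes the letters of the transcript and not its half-life.

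The 12 largest rises among well expressed genes (mean FPKM 5 or more) were led by Leng8 and Pnisr. Leng8 had a cytosolic FPKM of 3.81, 3.58 and 3.69 unstimulated and of 9.26, 6.61 and 6.32 with bicuculline, a log2 change of 0.89 ± 0.19 without overlap. Pnisr, a nuclear protein that interacts with splicing factors, went from 13.4, 13.6 and 10.7 to 22.7, 20.8 and 17.5, a change of 0.68 ± 0.11 without overlap. Of the 12 named rises 11 had no overlap between the groups, against 23.8% of all genes tested, and only the trafficking gene Dmxl2 (0.61) overlapped. They also held Flna (0.65), an actin crosslinker, Htt (0.64), the gene mutated in Huntington's disease, Tnrc6a (0.60), a partner of Argonaute in silencing by microRNAs, Ddx26b (0.60), the transporter Abcc5 (0.60), Osbpl6 (0.59), Ppp1r12c (0.57), a regulatory subunit of myosin phosphatase, and Arhgap20 (0.56). The 12 genes were chosen by their size and for a rise in all 3 pairs, so these counts describe them and test nothing. Only another scaling could then turn a direction, and all 12 stayed positive with median-ratio scaling and quantile normalization. Only 2 were called without pair 1, 8 without pair 2 and 1 without pair 3, and 0 under quantile normalization. Leng8 in particular had an adjusted p of 0.14 without pair 1, 0.0915 without pair 2 and 0.141 without pair 3 in limma.

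Gigyf1, a translational repressor named here after its values were seen, had the largest called change. Its cytosolic FPKM was 0.682, 0.637 and 0.891 unstimulated and 2.80, 2.52 and 2.46 with bicuculline, while its nuclear FPKM was 9.04, 9.13 and 8.80 unstimulated and 7.51, 11.9 and 7.49 with bicuculline. It reached an FPKM of 1 in the cytosol only with bicuculline, as did 57 of the 12318 genes tested, while 3 did so only without it. The log2 change of Gigyf1 was 1.33 ± 0.13 in the cytosol and -0.03 in the nucleus.

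Genes of mRNA decay were higher in part. Of 36 tested, 11 were higher and 0 lower, beside 9.88% and 0.317% of all genes tested, with a median log2 change of 0.22 against 0.09 over all genes tested. Among them were the nonsense-mediated decay kinase Smg1 (0.60), the adaptor Smg5 (0.34), the endonuclease Smg6 (0.35), the helicase Upf1 (0.35), the deadenylase components Cnot2 (0.35), Cnot10 (0.35), Cnot3 (0.33) and Cnot1 (0.22), the nuclease Parn (0.24) and the decapping scaffold Edc4 (0.25). Smg1 went from a cytosolic FPKM of 4.75, 5.32 and 4.55 to 8.21, 7.75 and 6.99, groups that did not overlap, with an adjusted p of 0.0068 in limma, of 0.0622 without pair 1 and of 0.0836 without pair 3. Median-ratio scaling left 3 of the 36 called and a median of 0.13, and the fit without pairs left 7. In the nucleus the median of the same genes was 0.01.

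Nuclear pore and mRNA export genes showed the same direction. Of 34 tested, 8 were higher and 0 lower, again beside 9.88% of all genes higher, with a median of 0.17, and 1 of them was called after median-ratio scaling (median 0.09). The largest were the nucleoporin Nup98, which went from 1.13, 1.23 and 1.36 to 2.21, 1.99 and 1.93 (0.55), the export factor Thoc2 (0.39), the nuclear basket protein Tpr (0.38) and the scaffold nucleoporin Nup107 (0.38). Among CLK kinases and SR proteins, which control splicing, 2 of 20 were called higher, about the 9.88% of all genes, Clk4 (0.45) and Son (0.43), with a median of 0.14. Clk4 rose from 3.13, 2.74 and 3.09 to 4.72, 3.71 and 4.42 without overlap, but was called in 4 of 14 alternatives. Clk1, from 1.72, 1.16 and 1.36 to 2.21, 1.65 and 2.53, changed by 0.46 with overlapping groups and did not pass. Spliceosome and hnRNP genes had 2 of 46 called, Ptbp2 (0.36) and Prpf8 (0.21), and a median of 0.07 that turned to -0.02 with median-ratio scaling.

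Genes of synapses and excitability were mostly not called, and none of their lists had a share of higher calls above the 9.88% of all genes tested. Voltage-gated channels had 3 of 32 higher, the calcium channel subunits Cacnb4 (0.43) and Cacna1d (0.41) and the potassium channel Kcnh7 (0.38), and a median of 0.07 that was -0.02 with both median-ratio and quantile scaling. Synaptic vesicle genes had 2 of 22 higher, the priming factors Unc13b (0.31) and Unc13a (0.29). Glutamatergic synapse genes had 2 of 37, the scaffold gene Dlgap2 (0.30) among them, and GABAergic synapse genes 0 of 22, where the chloride importer Slc12a2 changed by 0.29 and the receptor subunit Gabrg3 by 0.17. Translation factors had 1 of 37 (Eif3d, 0.21) and heat shock genes 1 of 18 (Hsf2, 0.42). Among hosts of small nucleolar RNAs 0 of 12 were called, with Snhg20 at 0.32 and Snhg17 at -0.18.

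Ribosomal protein genes stayed near 0 in the cytosol, with 0 of 76 called and a median of 0.01, whereas 43 of 76 were lower in the nucleus, beside 2.6% of all genes, at a median of -0.25. The difference between the fractions was called for 12 of the 76, all with the higher change in the cytosol, beside 2.74% of all genes. Rpl36 changed by -0.11 and Rpl35a by -0.16 in the cytosol, and the many pseudogenes of this family make its values less certain. Nuclear-encoded oxidative phosphorylation genes had 0 of 80 called and a median of -0.02, with Cox7c and Cox8a both at -0.18. Of the cell type markers 1 of 6 for excitatory neurons and 1 of 6 for the oligodendrocyte lineage were called higher. Other markers named by rule were not called: Map2 changed by 0.17, Tubb3 by -0.15, Dlx1 by 0.20, Sst by -0.24, Aqp4 by 0.13, Aldh1l1 by -0.05, Aif1 by 0.18, C1qa by 0.17, Nes by 0.01, Top2a by -0.03 and Col3a1 by 0.13.

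**Figure D3:**
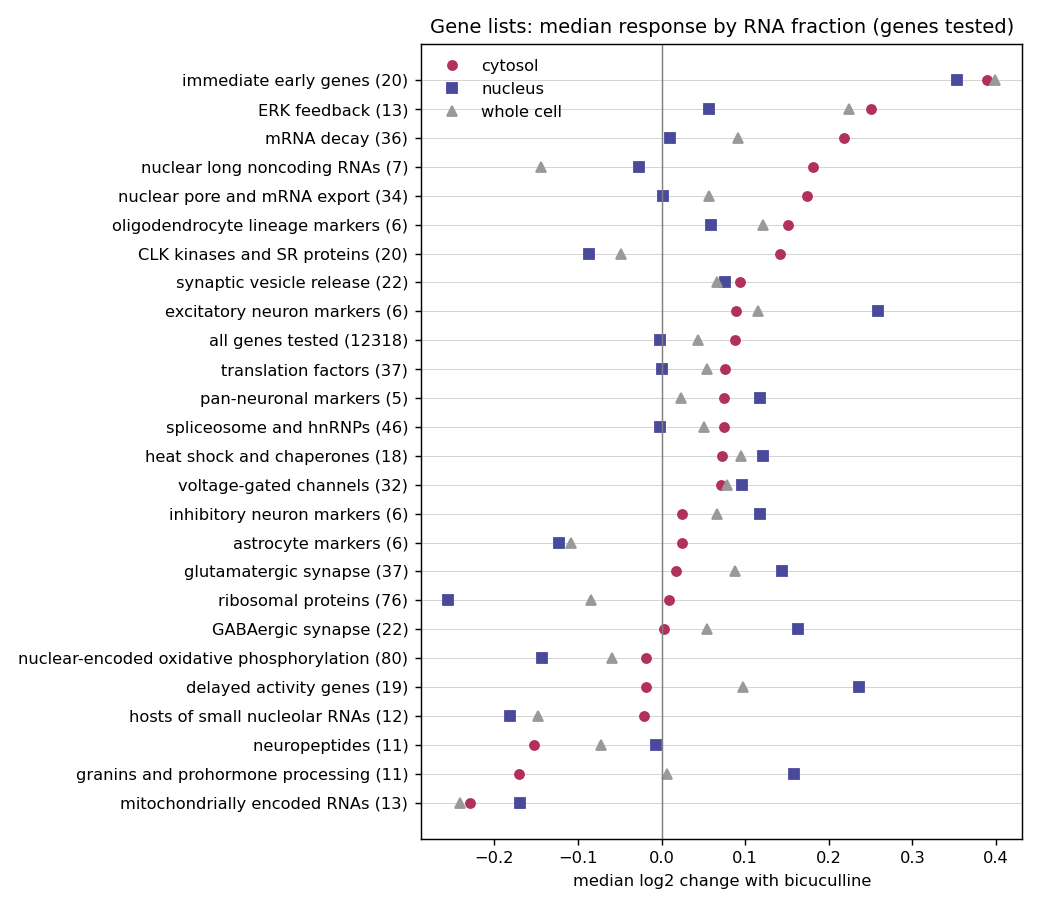
The horizontal axis is the median log2 change with bicuculline over the tested genes of each list, in cytosol (circles), nucleus (squares) and whole cells (triangles), with the number of genes in parentheses. Immediate early genes lie near 0.39 in cytosol, while the medians of delayed genes and of ribosomal proteins differ between cytosol and nucleus. The granin and neuropeptide lists were chosen after values were seen, and positions near 0 change sign with the scaling.

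The genes called lower had a median FPKM of 36.9, against 8.62 over all genes tested. Pcsk1n, which encodes a secreted inhibitor of prohormone cleavage, had a cytosolic FPKM of 39.3, 49.6 and 42.5 unstimulated and of 33.3, 30.5 and 26.0 with bicuculline, a log2 change of -0.54 ± 0.14 without overlap. Cck, a neuropeptide, went from 93.9, 88.1 and 105 to 85.7, 75.0 and 69.2, a change of -0.32 ± 0.09 in which pair 3 fell the most. The other named falls were Fam174a (-0.30), the neurotensin receptor Ntsr1 (-0.26), Arxes1 (-0.26), Ly6h (-0.25), the cadherin Cdh13 (-0.24), Tmem158 (-0.24), the latrophilin Adgrl1 (-0.23), the synaptotagmin Syt5 (-0.22), Aplp1 (-0.21) and the acid-sensing channel Asic2 (-0.21). Of the 12 named falls 9 had no overlap between the groups, against 2.26% of all genes tested, and all 12 stayed negative under each alternative run. They too were chosen by their size and for a fall in all 3 pairs, so these counts describe them and test nothing. Without pair 1 and without pair 3 the call was lost for all 12, with adjusted p of 0.071 to 0.116 and of 0.128 to 0.368 in limma, and without pair 2 only 1 was called. Pcsk1n had an adjusted p of 0.0428 with all pairs and 0.0722, 0.163 and 0.273 without pair 1, 2 or 3.

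Granins and prohormone-processing genes, a list made after Pcsk1n had been seen, had 3 of 11 lower in the cytosol, where 0.317% of all genes tested were lower. Beside Pcsk1n these were the prohormone convertase Pcsk2 (-0.19) and its chaperone Scg5 (-0.19), and 0 of 11 changes were positive. Since the list holds the gene that prompted it, its count tests nothing. Without the pairing 1 of 11 was lower, and with median-ratio scaling 5. In a list of neuropeptides made in the same way 1 of 11 was lower, which was Cck. RNAs of the mitochondrial genome had 4 of 13 lower and a median of -0.23, with -0.14 in pair 1, -0.13 in pair 2 and -0.43 in pair 3. Quantile normalization brought that median to -0.03. The 4 called entries have no gene symbol and 2 of them overlap each other. They lie on the mitochondrial genome at positions 9203 to 9888 (-0.43), 11720 to 14070 (-0.42), 9459 to 9804 (-0.31) and 15763 to 16189 (-0.21).

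The cytosolic and nuclear responses were then set against each other. Of the 1217 genes higher in the cytosol, 113 were also called higher and 21 lower in the nucleus, where 4.12% and 2.6% of all genes were. Their median nuclear change was 0.06, against -0.0024 over all genes tested. A test of the difference between the cytosolic and nuclear responses called 460 genes, 3.73% of those tested, of which 337 had the higher change in the cytosol (2.74%) and 123 the lower (0.999%). With median-ratio scaling the split of these calls was 116 higher and 326 lower, and the count fell to 20 without pair 1, 60 without pair 2 and 20 without pair 3. Only the cytosolic libraries of a pair were left out, and the nuclear libraries of that number stayed in the fit.

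Zscan26, a zinc finger protein, had the largest difference in favour of the cytosol among the genes named by rule for this difference. That rule took only genes with a mean FPKM of 5 or more, which leaves out Gigyf1. The FPKM of Zscan26 rose in the cytosol from 5.98, 5.85 and 5.39 to 8.60, 7.77 and 8.61. It fell in the nucleus from 12.9, 11.6 and 14.8 to 9.47, 9.64 and 8.80, without overlap in either fraction. The log2 changes were 0.50 and -0.47, a difference of 0.97 (adjusted p = 0.00379 in limma). Ppp1r12c rose in the cytosol from 8.85, 7.78 and 9.32 to 14.7, 11.5 and 13.0 and fell in the nucleus from 24.4, 22.0 and 22.8 to 19.7, 20.1 and 16.9, a difference of 0.85. Orc6, a subunit of the origin recognition complex, differed by 0.80, the export factor Thoc1 by 0.79 and Tnrc6a by 0.79. Zscan26, Ppp1r12c and Orc6 were called higher in the cytosol and lower in the nucleus, Tnrc6a was called in the cytosol, and Thoc1 was called in neither fraction alone.

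Reln, the gene of the secreted matrix protein reelin, had the largest difference of the opposite sign among the genes named by that rule. Its nuclear FPKM rose from 13.4, 15.6 and 14.6 to 22.5, 24.1 and 24.1, while its cytosolic FPKM was 33.2, 37.1 and 36.6 unstimulated and 32.2, 35.8 and 33.0 with bicuculline. The nuclear log2 change was 0.68 and the cytosolic one -0.08, a difference of -0.76 (adjusted p = 0.00379 in limma). Hapln1, a link protein of perineuronal nets, changed by 0.63 in the nucleus and -0.10 in the cytosol. Sv2c (0.50 and -0.09), the ubiquitin ligase Rnf128 (0.57 and -0.01) and the protocadherin Pcdh8 (0.37 and -0.17) showed the same order, all called in the nucleus and not in the cytosol. Under the alternatives, Reln and Zscan26 kept a called difference in 11 of 12 and Ppp1r12c likewise, each losing it when no filter on low values was set. The other named differences were less steady, with calls in 10 of 12 alternatives for Hapln1, 9 for Orc6, 8 for Tnrc6a, 7 for Sv2c, 6 for Rnf128, 6 for Pcdh8 and 3 for Thoc1.

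**Figure D4:**
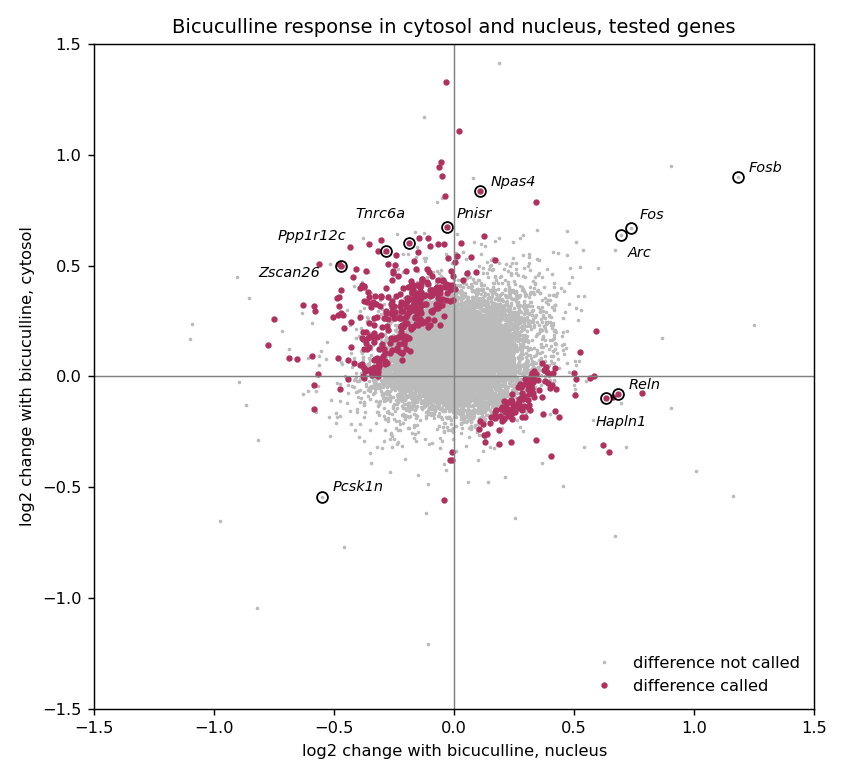
Each point is a gene, with its log2 change in the nucleus on the horizontal axis and in the cytosol on the vertical axis, and 6 of the 12318 genes lie outside the axes. Dark red points are the 460 genes whose difference was called, and circles mark named genes. Fos, Fosb and Arc lie to the upper right, Npas4 and Pnisr near the vertical axis, and Reln and Hapln1 near the horizontal axis.

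RNA of whole cells gave 59 calls (0.479%), 56 higher (0.455%) and 3 lower (0.0244%). Of the 1217 genes higher in the cytosol 1097 had a positive change in whole cells, with a median of 0.16, against 0.04 over all genes tested, and 51 were called there. The share of positive changes in whole cells over all genes was not counted, and RNA of whole cells includes that of the cytosol. The difference between cytosol and whole cells was called for 1 gene in limma (0.00812%), with the higher change in the cytosol, and for 0 genes (0%) in the other direction, and 861 genes had an unadjusted p under 0.05. That gene is the entry GSMG0065196 without a symbol, at chrX:74171723-74171924, with changes of 0.08 in the cytosol and -1.34 in whole cells.

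Genes that were higher in the cytosol were longer and more nuclear than the rest. The median coding length was 2415 nt among the genes called higher and 1410 nt among all coding genes tested, and the median number of introns was 15 against 8. Across deciles of coding genes ordered by coding length the median log2 change rose from 0.02 in the shortest to 0.18 in the longest, and the share called higher from 0.59% to 28.9%. The longest decile was above the shortest in each pair, from -0.01 to 0.18 in pair 1, from 0.01 to 0.14 in pair 2 and from 0.08 to 0.23 in pair 3. In the nucleus the longest decile had a median of 0.03 and the shortest -0.10.

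The other gradient followed the ratio of nuclear to whole cell FPKM in unstimulated cells. The median cytosolic change rose from 0.05 in the least nuclear decile to 0.16 in the most nuclear one, and the share called higher from 2.35% to 16.2%. The median change fell from 0.15 to -0.15 in the nucleus and from 0.08 to -0.06 in whole cells. Unstimulated values of these 2 fractions also enter the ratio itself. The cytosolic gradient was from 0.01 to 0.22 in pair 1 and from 0.00 to 0.12 in pair 2, and was weaker in pair 3, from 0.13 to 0.17. Genes were also split into 3 equal groups by each measure. Among the genes with the longest coding sequence the median was 0.09 in the least nuclear group and 0.19 in the most nuclear one, and among those with the shortest it was 0.04 and 0.07. The rank correlation across genes of the cytosolic change was 0.348 with coding length, 0.256 with the nuclear ratio and -0.239 with mean FPKM, given as descriptions since genes share the libraries.

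**Figure D5:**
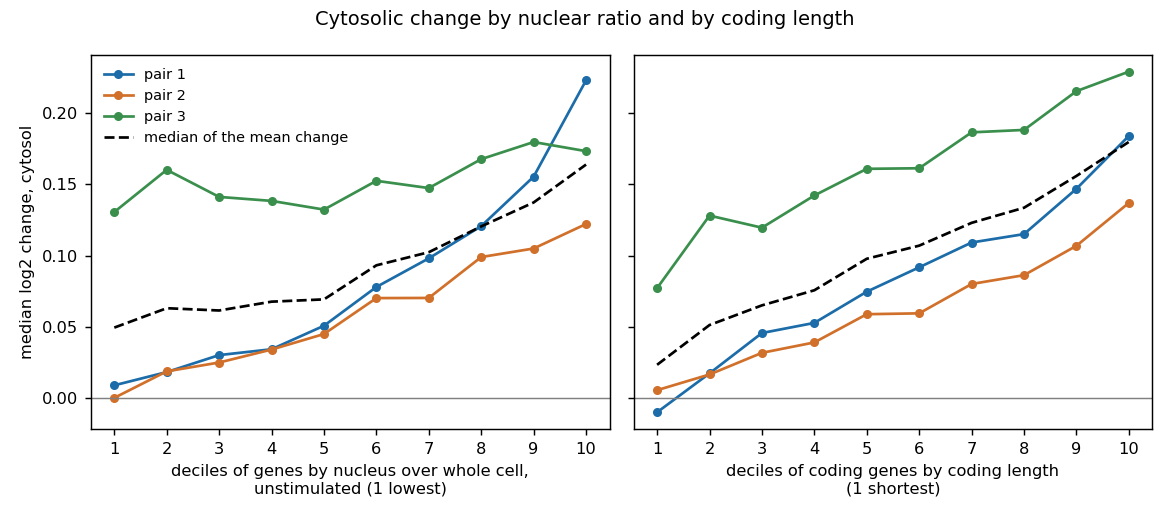
Vertical axes are the median log2 change with bicuculline in the cytosol, for deciles of the tested genes by the ratio of nuclear to whole cell FPKM in unstimulated cells (left) and of coding genes by coding length (right). Lines are the 3 pairs and the dashed line is the median of the mean change. The dashed line goes from 0.05 to 0.16 on the left and from 0.02 to 0.18 on the right, and pair 3 is nearly flat on the left.

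Genes of the most nuclear decile had a higher summed FPKM in the stimulated cytosolic libraries, while the sums of nuclear long noncoding RNAs overlapped. The decile begins at a log2 ratio of nuclear to whole cell FPKM of 0.456, which does not show that most of their RNA is nuclear. Its median log2 change was 0.22, 0.12 and 0.17 in pairs 1 to 3, against 0.07, 0.05 and 0.15 over all genes tested. The 1232 genes of the most nuclear decile summed to an FPKM of 9395, 9104 and 9204 in the unstimulated libraries of pairs 1 to 3 and of 10565, 9675 and 9657 in the stimulated ones, without overlap. Nuclear long noncoding RNAs had a median change of 0.18 with 0 of 7 called, and their summed FPKM was 224 to 259 unstimulated and 246 to 300 with bicuculline in the cytosol, against 1431 to 1947 in the unstimulated nucleus. Meg3 went from 83.3, 76.9 and 76.6 to 115, 90.8 and 75.4, so that pair 1 rose the most, pair 3 did not rise, and the change of 0.23 was not called. Mirg, from the same locus, changed by 0.47 and was not called either. How far the purity of the cytosolic fraction differed between the states, and its part in the rises of the most nuclear genes, was not tested.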

How the data were processed

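The authors deposited 1 table of FPKM values for all libraries of the series, per gene of the FASTDB annotation on mm10, and STAR 2.4.0, SAMtools, Picard and FastQC are named in the submitters' processing notes. How fragments were counted, on which strand, and how multiply mapping reads were handled were not found in those notes or the labels (not given in the sources used here), so reads of overlapping genes cannot be told apart. From these values log2(FPKM + 0.5) was computed without further scaling. Depth was estimated from the steps between low values, and 43.7% to 46.2% of low cytosolic values lay within 0.01 fragment of a whole number, so no count test was run.

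limma 3.58.1 (R 4.3.3), with trend and robust moderation, was fitted to the 18 triptolide libraries with 9 pair terms, a bicuculline term for each fraction and 6 residual degrees of freedom. Differences between fractions were contrasts of those terms and were not paired by number across fractions. The 9 pairs were treated as independent, although the 3 fractions share the replicate numbers. Any spread shared by fractions of the same number was not modelled, so p-values and standard errors may be off in either direction. Genes needed an FPKM of at least 1 in 3 of the 6 cytosolic libraries. Standard errors are those of limma, with a moderated spread pooled over the 3 fractions, and calls are Benjamini-Hochberg adjusted p-values below 0.05. The script was tested on simulated data with noise drawn independently for each library and no shift over all genes between the states. That test does not cover shared shifts or spread shared between fractions. The replicate numbers come from the labels and were used to pair the libraries. In each fraction the deviations from the group means correlated at 0.40 to 0.64 between libraries of the same number. Between different numbers they correlated at -0.36 to -0.04 in the cytosol. Deviations cancel within a group, so positive values for the same number force negative ones on average between different numbers. The negative values are therefore no further support for the pairing.

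The genes and lists were chosen with earlier results of these data known, and the lists of granins and neuropeptides after values were seen. Genes were named by rule: the 12 largest called rises and falls with a mean FPKM of at least 5, the 5 largest differences from the nucleus in each direction, a set of early genes, and up to 4 called members per list or 2 uncalled ones. Further members are named where they help to describe a count, and some genes are not reported here. Of the 12318 genes tested, 1483 had no symbol, and 10387 matched GENCODE M21 for lengths, introns and 3′ UTRs. Alternatives changed the pairing, the libraries fitted, the scaling, the pseudocount (0.1 or 1), the filter, the moderation or left out 1 cytosolic pair. The nuclear and whole cell libraries of that number were kept.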

Additional observations from a re-analysis of the deposited data

Results flagged for a closer look

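Results stand here because the response to bicuculline differed between the cytosol and another RNA fraction in a test of that difference (limma, adjusted p under 0.05). The difference from the nucleus was called for 460 genes and the difference from whole cells for 1.

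Among named genes the log2 change was higher in the cytosol than in the nucleus by 0.97 for Zscan26, 0.85 for Ppp1r12c, 0.80 for Orc6, 0.79 for Thoc1, 0.79 for Tnrc6a, 0.73 for Npas4, 0.70 for Pnisr, 0.69 for Clk4, 0.64 for Ddx26b, 0.57 for Smg1, 0.55 for Cnot10, 0.47 for Cacnb4 and 0.45 for Per1. Ppp1r12c, Zscan26 and Orc6 were called lower in the nucleus, and Per1 was called higher there. The other genes of this direction were not called in the nucleus.

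The difference was -0.76 for Reln, -0.73 for Hapln1, -0.59 for Sv2c, -0.57 for Rnf128, -0.54 for Pcdh8, -0.43 for Cdh13, -0.40 for Arxes1, -0.40 for Pcsk2, -0.39 for Ntsr1, -0.36 for Aplp1, -0.34 for Tmem158 and -0.34 for Syt5. Reln, Hapln1, Sv2c, Rnf128 and Pcdh8 rose in the nucleus and were not called in the cytosol. Cdh13, Arxes1, Ntsr1, Aplp1, Tmem158 and Syt5 fell in the cytosol and were not called in the nucleus. Pcsk2 was called in both, lower in the cytosol (-0.19) and higher in the nucleus (0.21).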

How the results depend on the processing

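With 3 pairs in the cytosol, and 6 residual degrees of freedom from the 9 pairs of all fractions, the counts of calls were fragile. All 3 pairs of each called gene lay on the same side of 0, so only another scaling could turn its direction. Of the 67 called genes refitted under the alternatives, only the mitochondrial entry GSMG0041515 turned, to 0.10 under quantile normalization. The number of genes called in the cytosol was 1256 (1217 higher and 39 lower). Without the replicate block it was 521 (508 and 13), with the 6 cytosolic libraries alone and no replicate block 4 (4 and 0), and with a replicate block common to the fractions 2318 (2193 and 125). It was 246 (150 and 96) with median-ratio scaling, 25 (18 and 7) with quantile normalization and 14 (13 and 1) with no filter on low values, where more genes were tested. Without trend and robust moderation 25 genes were lower. Leaving out 1 cytosolic pair gave 23 to 396 calls (22 to 385 higher, 1 to 11 lower), with fewer libraries fitted. Median-ratio scaling of the 6 cytosolic libraries with the replicate block, added after the data were seen, gave 145 (109 higher).

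The 460 calls of the difference from the nucleus became 76 without the replicate block, 1490 with a common block and 0 with no filter. They became 80 without trend and robust moderation and 20 to 60 without 1 cytosolic pair. The single call of the difference from whole cells became 0 without the replicate block, with a common block, with median-ratio scaling, quantile normalization, no filter or an FPKM of at least 5. It became 0 to 1 without 1 cytosolic pair. The causes of these shifts were not tested beyond what fewer libraries or more genes imply.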
